A study of Mus musculus with 8 samples.

Results

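The genes described here are 10 genes of antigen presentation by class I of the major histocompatibility complex (MHC). They were chosen by symbol and role, with earlier results of these data known, and no measured value enters the rule. They are the heavy chains *H2-D1*, *H2-K1*, and *H2-T23*, the light chain *B2m*, the peptide transporter subunits *Tap1* and *Tap2*, the loading factor *Tapbp*, the immunoproteasome subunits *Psmb8* and *Psmb9*, and the activator *Nlrc5*. All 10 were among the 25239 gene symbols measured and among the 18123 genes tested, which had a mean level of 0.1 CPM or more, where CPM are the reads of a gene scaled to the effective size of its library.

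A class I molecule is a heavy chain joined to beta-2 microglobulin, and it shows a short peptide from inside the cell to CD8 T cells and natural killer (NK) cells. The peptides are cut by the proteasome, carried into the endoplasmic reticulum by the transporter TAP, and loaded with the help of tapasin. Interferons and NF-kappa B raise most genes of this pathway together, and NLRC5 is the transcriptional activator that acts on their promoters. In resting brain the pathway is low, with microglia and endothelial cells as known sites of expression, and *H2-D1*, *H2-T23*, and *Psmb8* also stand on commonly used lists of reactive astrocyte genes.

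Bilateral common carotid artery stenosis (BCAS) narrows both carotid arteries with microcoils and so lowers blood flow to the brain, and the sham operation is done without coils. RNA was taken from the corpus callosum, a white matter tract, of male mice (strain C57BL/6 in the labels, C57BL/6J in the methods) used at 8 to 12 weeks of age. The question was which genes change after BCAS in wild-type (WT) mice and in mice of a whole-body *Trpa1* knockout line (TRPA1-KO, genotype *Trpa1* -/-) backcrossed to C57BL/6J. Each genotype label was given by 1 sham library (day 14) and by BCAS libraries of days 7, 10, and 14, 1 for each day, so no day has a replicate and there is no sham library for days 7 and 10. The 3 BCAS libraries of a label served as its replicates, and their spread holds both the difference between days and that between mice. P-values measure only this spread.

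The libraries held between 7896071 and 12952093 reads on genes, so 3 reads, taken as the lowest level that can be shown, were worth 0.235 to 0.378 CPM. Reads of the targeted gene were more numerous under the TRPA1-KO label than under the WT label. *Trpa1* had 1 read in the sham library labelled WT and 0 in its 3 counterparts after BCAS, and it had 10, 11, 3, and 7 reads in the sham and the day 7, 10, and 14 libraries labelled TRPA1-KO. Counts per gene do not show where in *Trpa1* these reads lie, so whether the knockout allele could give them was not tested. Libraries are named by label. Each direction between genotypes given here is one between labels, whose match to the genotypes the *Trpa1* reads put in doubt. Summed markers of oligodendrocytes reached 12595 to 16844 CPM per library, but summed neuron markers also reached 5516 to 7195 CPM, with the striatal gene *Ppp1r1b* at 233 to 542 CPM.

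Class I genes were high in 2 of the 8 libraries, those of BCAS days 7 and 10 under the WT label. For 10 of the 10 genes, the 2 highest values of the 8 libraries were the values of these 2 libraries, a pattern that 8.93% of all genes tested showed. This is a ranking of values, not a clear separation for each gene. For *H2-T23*, *Tap1*, *Tap2*, *Tapbp*, *Psmb8*, and *Psmb9*, the counting interval on day 10 overlapped that of a lower library. For *H2-T23* the interval on day 7 did so too. Relative to the mean of the sham libraries, the median log2(CPM + 1) difference of the 10 genes was 1.42 on day 7 and 1.11 on day 10 under the WT label. In the day 14 library with the same label it was -0.089, near the sham level. Under the TRPA1-KO label it was 0.019, -0.14, and 0.30 on days 7, 10, and 14. The median over all genes tested lay between -0.0076 and 0.0024 in each library. Since the tissue was measured in bulk, more cells that express these genes and more RNA per cell cannot be told apart.

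**Figure D1:**
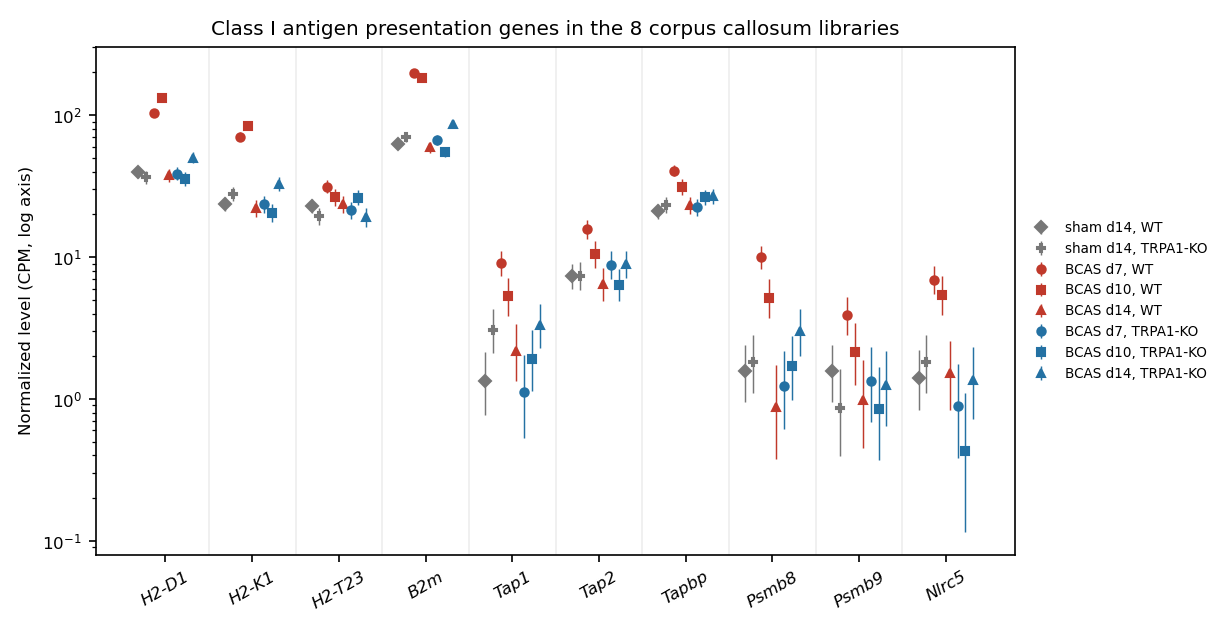
Levels in CPM (log axis) of the 10 class I genes in each of the 8 libraries, with 95% Clopper-Pearson counting intervals as bars, grey for sham, red for BCAS labelled WT, and blue for BCAS labelled TRPA1-KO. The red circle (day 7) and red square (day 10) are the 2 highest points of every gene, and the red triangle (day 14) lies below both. The bar of the red square overlaps that of a lower point for *H2-T23*, *Tap1*, *Tap2*, *Tapbp*, *Psmb8*, and *Psmb9*.

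The heavy chains of the classical class I molecules were high in these 2 libraries and lower in the other BCAS libraries. *H2-D1* (chromosome 17, 35262730 to 35267499, plus strand, GRCm38) had 39.7 and 36.5 CPM in the sham libraries labelled WT and TRPA1-KO. After BCAS it had 104, 132, and 37.6 CPM on days 7, 10, and 14 under the WT label, and 38.6, 35.4, and 50.04 CPM under the TRPA1-KO label. The 2 early libraries labelled WT stand apart, and the day 14 library of this label lies inside the range of sham. *H2-K1* (chromosome 17, 33996017 to 34000347, minus strand) was high in the same libraries, with 23.7 and 27.9 CPM in sham, 70.4, 84.4, and 22.1 CPM after BCAS under the WT label, and 23.6, 20.5, and 32.9 CPM under the TRPA1-KO label. *H2-D1* and *H2-K1* were the only 2 of the 10 genes with a higher value on day 10 than on day 7. The day 10 value was 3.48 times the sham mean for *H2-D1* and 3.27 times for *H2-K1*.

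*B2m*, the light chain that all class I heavy chains need to reach the cell surface, had 62.4 and 69.8 CPM in sham (chromosome 2, 122147686 to 122153083, plus strand). Under the WT label it had 199, 181, and 59.4 CPM on days 7, 10, and 14, and under the TRPA1-KO label 67.3, 55.0, and 86.6 CPM. Its folds over the sham mean, 3.02 on day 7 and 2.75 on day 10, stand beside 2.72 for *H2-D1* and 2.73 for *H2-K1* on day 7. *H2-T23*, which encodes the nonclassical molecule Qa-1 that presents to NK cell receptors (chromosome 17, 36029773 to 36032855, minus strand), varied far less. It had 22.9 and 19.4 CPM in sham, 31.4, 26.5, and 23.6 CPM under the WT label, and 21.4, 26.3, and 19.04 CPM under the TRPA1-KO label. Its day 10 values under the labels differed by a factor of 1.01.

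Promoters were read from RefSeq (GRCm38.p6), which held the start of 8 of the 10 genes. No entry was held for *Tap2* and *Nlrc5*. In the 250 bases before the start, 5 letter patterns were searched on both strands. They were a kappa B site (GGG, any 2 bases, then TTNCC, in 4.11% of all 32851 promoter windows), interferon response elements in a long form (GAAA, any 2 bases, then GAAA, 2.98%) and a short form (GAANNGAAA, 6.31%, which overlaps the long form), the X2 box (TGACG, 17.8%), and the Y box (ATTGG, 33.8%). X2 and Y are parts of the module on which NLRC5 acts together with the factors RFX, CREB, and NF-Y. The windows of *H2-K1* (chr17:34000348-34000597, minus strand) and *B2m* (chr2:122147437-122147686, plus strand) are shown 5′ to 3′ because the genes are a heavy chain and its light chain with high values in the same 2 libraries, with the matches in capitals. For *H2-K1* the upstream one of its RefSeq starts was used.
H2-K1: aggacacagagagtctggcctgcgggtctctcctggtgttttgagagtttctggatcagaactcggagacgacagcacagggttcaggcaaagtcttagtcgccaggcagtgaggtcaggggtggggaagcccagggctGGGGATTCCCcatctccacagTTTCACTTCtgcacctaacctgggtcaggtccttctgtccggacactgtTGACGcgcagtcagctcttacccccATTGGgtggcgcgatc
B2m: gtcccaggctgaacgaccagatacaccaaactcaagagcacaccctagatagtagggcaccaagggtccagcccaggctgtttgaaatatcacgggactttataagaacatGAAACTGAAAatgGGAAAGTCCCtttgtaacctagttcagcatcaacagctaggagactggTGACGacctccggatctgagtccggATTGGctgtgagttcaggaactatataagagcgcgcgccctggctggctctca

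In both windows a kappa B match stood beside an interferon response match, and an X2 match stood before a Y match. The stretch from X2 to Y is set side by side for the 3 genes that hold it (*H2-K1*, chr17:34000359-34000388, minus strand, *H2-D1*, chr17:35262993-35263022, plus strand, and *B2m*, chr2:122147609-122147638, plus strand). Each has 20 bases between the capitals.
H2-K1: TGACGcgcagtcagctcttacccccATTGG
H2-D1: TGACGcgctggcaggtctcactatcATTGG
B2m: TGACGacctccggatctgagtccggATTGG

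An X2 match followed by a Y match 15 to 25 bases on, on the strand of the gene, was found in 0.237% of all genes with a window (64 of 27025) and in 3 of the 8 class I genes with one. The upstream stretch of *H2-K1* (chr17:34000429-34000458) and *H2-D1* (chr17:35262923-35262952) holds the kappa B and the interferon match, in capitals.
H2-K1: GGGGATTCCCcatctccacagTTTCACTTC
H2-D1: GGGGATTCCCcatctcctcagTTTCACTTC

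The promoters of *H2-K1* and *H2-D1* were 91.0% identical over 177 aligned bases, and their transcripts were 88.2% identical over 1513 bases. Reads could therefore be split between these paralogs, and each of their values is uncertain to that extent. *H2-T23* held a long interferon response match but no X2 match. *Tap1* and *Psmb9* start 225 bases apart on opposite strands and share most of their windows, in which an X2 and a Y match were found but no kappa B or interferon match. *Tapbp* held only Y matches and *Psmb8* held none of the 5 patterns, which says only that these letters are not in those windows.

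**Figure D2:**
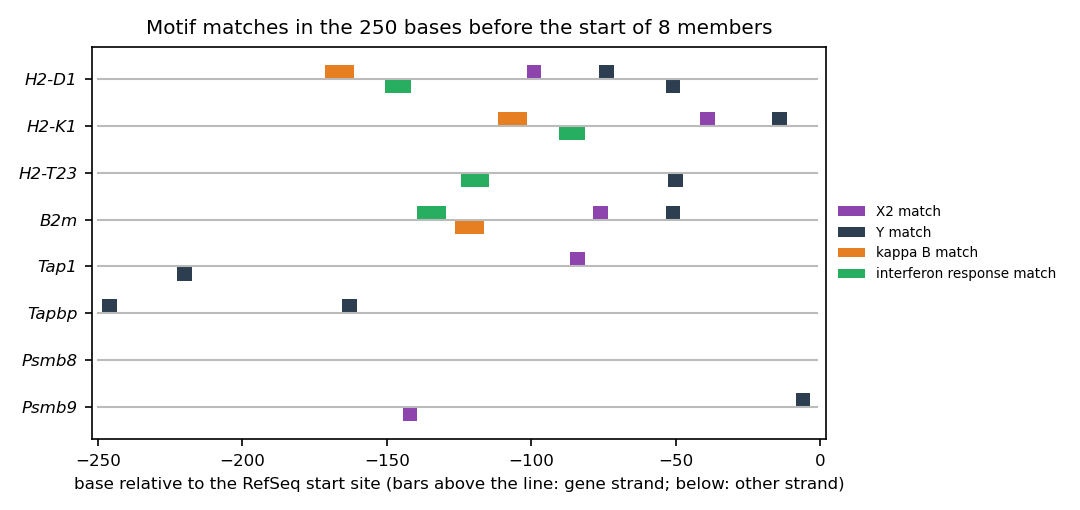
Matches to the letter patterns in the 250 bases before the RefSeq start site of 8 class I genes (x axis, bases relative to the start), with bars above each line for matches on the strand of the gene and below it for the other strand. *H2-D1*, *H2-K1*, and *B2m* hold an X2 match and a Y match with 20 bases between them, and each also holds a kappa B and an interferon response match.

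The genes that carry peptides to the heavy chains also had their highest values in the day 7 library labelled WT. *Tap1* (chromosome 17, 34187553 to 34197225, plus strand) had 1.33 and 3.07 CPM in sham, 9.07, 5.29, and 2.19 CPM on days 7, 10, and 14 under the WT label, and 1.11, 1.92, and 3.33 CPM under the TRPA1-KO label. Its day 7 value, 102 reads against 10 under the TRPA1-KO label, was 8.15 times that of the other label. *Tap2*, its partner (chromosome 17, 34203527 to 34216321, plus strand), had 7.35 and 7.38 CPM in sham, 15.7, 10.5, and 6.47 CPM under the WT label, and 8.79, 6.41, and 8.95 CPM under the TRPA1-KO label. The subunits of the transporter thus differed in fold over the sham mean on day 7, which was 4.12 for *Tap1* and 2.14 for *Tap2*. This difference between the subunits was not tested.

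*Tapbp*, or tapasin, the chaperone that links the transporter to the heavy chain (chromosome 17, 33915899 to 33929292, plus strand), had 21.0 and 23.4 CPM in sham. It had 40.6, 31.3, and 23.2 CPM under the WT label and 22.5, 26.4, and 26.7 CPM under the TRPA1-KO label. Day 7 was 1.83 times the sham mean, the second smallest fold of the 10 genes after the 1.48 of *H2-T23*. The annotated span of *Tapbp*, introns included, shares 3422 bases with that of *Zbtb22* on the same strand, whose level lay between 24.3 and 31.4 CPM. The overlap of their exons was not measured, so how many reads could belong to either gene is not known.

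*Psmb8* and *Psmb9* encode catalytic subunits of the immunoproteasome, which replace the constitutive subunits *Psmb5* and *Psmb6* and change which peptides are cut. *Psmb8* (chromosome 17, 34197721 to 34201454, plus strand) had 1.56 and 1.82 CPM in sham, 9.96, 5.17, and 0.878 CPM on days 7, 10, and 14 under the WT label, and 1.22, 1.71, and 3.02 CPM under the TRPA1-KO label. Its day 7 value of 112 reads was 5.88 times the sham mean, the highest fold of the 10 genes in that library. The same label gave its lowest value of all, 8 reads on day 14. *Psmb9* (chromosome 17, 34181987 to 34187764, minus strand) had 1.56 and 0.863 CPM in sham, 3.91, 2.14, and 0.988 CPM under the WT label, and 1.34, 0.854, and 1.25 CPM under the TRPA1-KO label. With 8 to 44 reads per library, the 95% Clopper-Pearson interval of its day 10 value (1.25 to 3.43 CPM) overlapped that of the sham library labelled WT (0.956 to 2.42 CPM). These intervals cover counting error only.

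Per kilobase of transcript, the inducible subunits stayed far below the constitutive ones. *Psmb8* mRNA was 1.55% and 1.90% of *Psmb5* mRNA in sham, 11.4%, 5.35%, and 0.920% on days 7, 10, and 14 under the WT label, and 1.17%, 1.62%, and 3.24% under the TRPA1-KO label. *Psmb9* reached 3.72% of *Psmb6* on day 7 under the WT label, against 0.925% to 1.54% in sham. *Psmb10*, the inducible subunit that replaces *Psmb7* and is not one of the 10 genes, was already at 21.9% and 27.3% in sham and reached 33.2% on day 7. The constitutive *Psmb5* itself lay between 48.4 and 58.4 CPM in all 8 libraries, so the changing term of the first ratio was *Psmb8*.

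**Figure D3:**
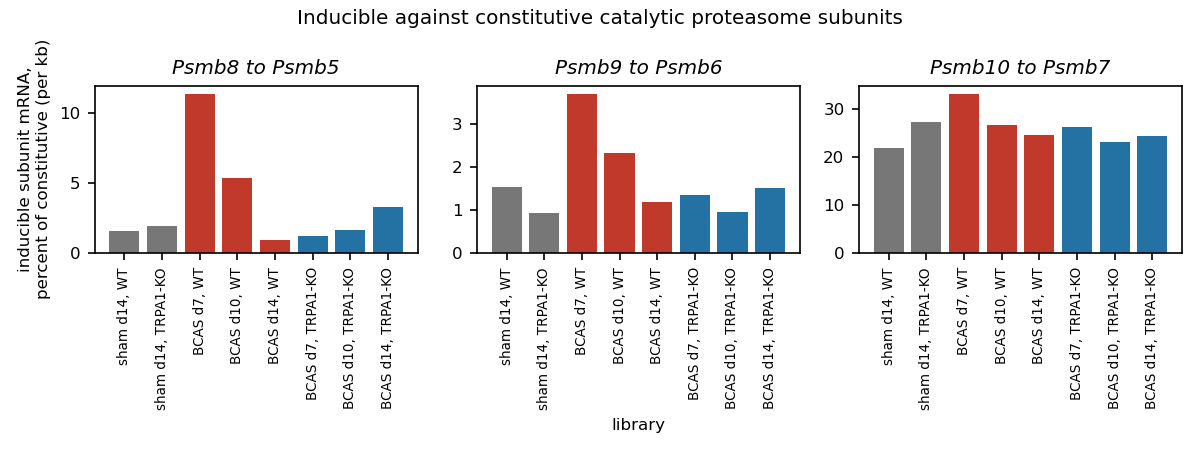
Inducible catalytic proteasome subunits as a percent of the constitutive subunit each one replaces (CPM per kilobase of transcript, y axis from 0) in each library. *Psmb8* reached 11.4% of *Psmb5* on day 7 under the WT label, while *Psmb10* lay between 21.9% and 33.2% of *Psmb7* in all libraries.

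*Nlrc5*, the activator of class I promoters (chromosome 8, 94434356 to 94527272, plus strand), was the lowest of the 10 genes per kilobase. It had 18 and 19 reads in sham (1.41 and 1.82 CPM). Under the WT label it had 78, 43, and 14 reads (6.94, 5.42, and 1.54 CPM) on days 7, 10, and 14, and under the TRPA1-KO label it had 8, 4, and 13 reads (0.891, 0.427, and 1.35 CPM). It was the only one of the 10 genes for which the lowest BCAS library of the WT label lay above the highest of the TRPA1-KO label, which 4.48% of all genes tested did. The margin on day 14 was small, and the counting intervals of those libraries (0.840 to 2.58 CPM and 0.720 to 2.31 CPM) overlapped.

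Levels differed widely between the genes. Per kilobase of transcript, the sham mean was 76.8 CPM for *B2m*, 18.1 for *H2-D1*, 15.9 for *H2-K1*, 14.4 for *H2-T23*, and 7.67 for *Tapbp*, and it was 2.14 for *Tap2*, 1.04 for *Psmb8*, 0.898 for *Psmb9*, 0.745 for *Tap1*, and 0.213 for *Nlrc5*. The ranges of both sham libraries overlapped between *H2-K1* and *H2-T23*, and also among *Psmb8*, *Psmb9*, and *Tap1*, so the order within these groups is not resolved. *H2-D1* lay just above *H2-K1*, with at least 17.4 CPM per kilobase against at most 17.2. In the sham library labelled TRPA1-KO this margin is within the counting error, so this order is not resolved either.

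Of the 2 BCAS groups, that of the WT label had the higher mean for all 10 genes, which held for 50.3% of all genes tested. The median log2 fold change of the 10 genes was 0.85 on the log2(CPM + 1) scale, which understates the change of low genes, and it was 0.0010 over all genes. A limma p under 0.05 before adjustment was found for 5 of the 10, *H2-D1*, *H2-K1*, *B2m*, *Tap1*, and *Nlrc5*, and for 2.4% of all genes tested in this direction. After Benjamini-Hochberg adjustment over all genes tested, 0 of the 10 had a limma adjusted p under 0.05, as 0.0166% of all genes did. With edgeR 5 of the 10 had an unadjusted p under 0.05 (3.53% of all genes tested in this direction) and with DESeq2 6 (2.44%), and both gave 0 after adjustment (0.011% and 0.0883%).

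*H2-D1* had 91.3 ± 48.6 CPM (SD, n = 3) under the WT label and 41.4 ± 7.68 CPM under the TRPA1-KO label. The log2 difference between these groups was 0.96 (with a standard error of 0.37, limma adjusted p = 0.98, exact permutation test p = 0.30). For *H2-K1* the means were 59.0 ± 32.7 and 25.7 ± 6.44 CPM (log2 fold change 0.99, standard error 0.40), and for *B2m* 147 ± 76.2 and 69.6 ± 15.9 CPM (0.91, 0.38). The SD under the WT label was large for each of these 3 genes, with the day 14 library at the sham level and the other 2 far above it. *Nlrc5* had the largest change, with 4.63 ± 2.79 against 0.890 ± 0.463 CPM and a log2 fold change of 1.45 (with a standard error of 0.39 and a limma adjusted p = 0.98). Its exact permutation test gave a two-sided p = 0.10, the smallest that 3 against 3 libraries allow. *H2-T23* had the smallest change, 0.28 (95% interval -0.044 to 0.60).

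The outcome changed with single libraries. Without the day 14 library labelled WT, the median log2 fold change was 1.44, all 10 genes had a limma p under 0.05, and 4 of them (*H2-D1*, *H2-K1*, *B2m*, and *Nlrc5*) had a limma adjusted p under 0.05. In this fit the calls also became more frequent over all genes tested, to 6.75% before adjustment and 0.16% after it in this direction. Without the day 7 library labelled WT the median was 0.41, and without the day 10 library 0.62. In each case 1 gene had a limma p under 0.05 (1.59% and 1.89% of all genes tested in this direction). Leaving out the day 7 or day 10 library labelled TRPA1-KO left 1 and 2 genes at this limit (1.5% and 1.09%), and limma's robust option left 1 (2.16%). On single days, the value under the WT label was above that under the TRPA1-KO label for 10 of the 10 genes on day 7 (median ratio 2.94, 51.0% of all genes tested being higher under the WT label) and on day 10 (2.89, 49.6%). On day 14 it was above it for only 2 of the 10 (0.738, 48.7%), *H2-T23* and *Nlrc5*. Each day is 1 library per label and has no replicate check.

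**Figure D4:**
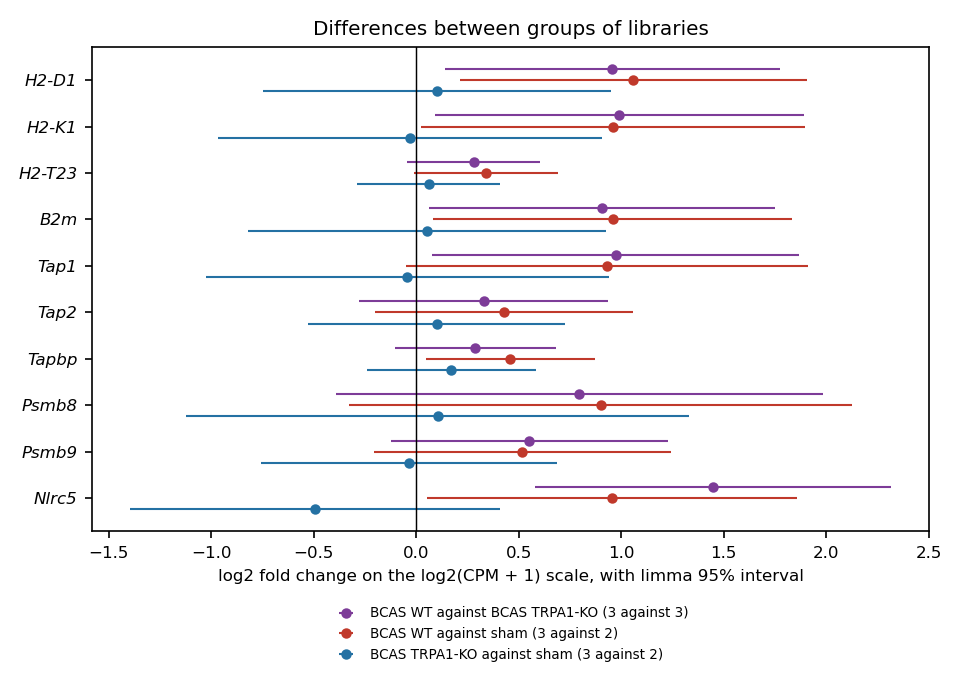
Log2 fold changes of the 10 class I genes on the log2(CPM + 1) scale (x axis) with their 95% limma intervals, between the BCAS libraries of both labels (purple) and of each label against both sham libraries (red, WT, and blue, TRPA1-KO). The purple and red points all lie above 0, from 0.28 to 1.45 and from 0.34 to 1.06, and the blue points lie on both sides of 0, from -0.49 to 0.17.

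Against both sham libraries, all 10 genes had a higher mean in the BCAS libraries labelled WT (49.6% of all genes tested), with a median log2 fold change of 0.92. *H2-D1* (1.06), *H2-K1* (0.96), *B2m* (0.96), *Tapbp* (0.46), and *Nlrc5* (0.96) had a limma p under 0.05 before adjustment (2.44% of all genes tested in this direction), and *H2-T23* was the only one with no overlap between the groups (8.89% of all genes tested). After adjustment 0 of the 10 had a limma p under 0.05 (0.0% of all genes tested), where edgeR gave 8 before adjustment and 0 after it (3.92% and 0.0% of all genes tested in this direction) and DESeq2 7 and 0 (2.59% and 0.0331%). Without the day 14 library labelled WT, *H2-D1*, *H2-K1*, and *B2m* had a limma adjusted p under 0.05, with log2 fold changes of 1.597, 1.55, and 1.51, where 0.226% of all genes tested had one in this direction. With 1 sham library left, the median was 0.79 without the one labelled WT and 0.99 without the one labelled TRPA1-KO. Without the BCAS library labelled WT of day 7 or day 10, 1 and 0 genes had an unadjusted limma p under 0.05 (2.22% and 2.06% of all genes tested in this direction). Without the day 7 library labelled TRPA1-KO 3 had one (2.16%).

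Under the TRPA1-KO label, the differences from sham had both signs. The median log2 fold change was 0.057, and 6 of the 10 genes had a higher mean than sham (49.4% of all genes tested). None (0) of the 10 had a limma p under 0.05 before adjustment (1.07% of all genes tested in this direction) or after it (0.00552%), with edgeR and DESeq2 also at 0. Values ranged from -0.49 for *Nlrc5* (95% interval -1.39 to 0.41) to 0.17 for *Tapbp* (-0.24 to 0.58), and the interval of *H2-D1* (-0.74 to 0.95) reaches from a decrease to an increase. Both comparisons with sham share the 2 sham libraries. By library, 1, 2, and 7 of the 10 genes lay above both sham libraries on days 7, 10, and 14 under the TRPA1-KO label (35.1%, 32.6%, and 33.0% of all genes tested), against 10, 10, and 1 under the WT label (38.8%, 35.4%, and 33.3%). On day 14 the TRPA1-KO library was thus the higher one for most of the pathway, with folds over the sham mean of up to 1.78 for *Psmb8*.

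Whether the change after BCAS differed between the labels was tested as an interaction, with each label against its own sham library. The median over the 10 genes was 0.89, higher under the WT label for 10 of them (50.9% of all genes tested), but 0 had a limma p under 0.05 before adjustment (0.811%) or after it (0.0%). The differences were 1.78 for *Tap1* (standard error 0.80) and 1.68 for *Nlrc5* (standard error 0.78), each with a limma adjusted p of 0.9998 in a fit over all genes tested. Without the day 14 library labelled WT 7 of the 10 had an unadjusted limma p under 0.05 (2.75% of all genes tested in this direction) and the median was 1.501. Over both labels, the 6 BCAS libraries had a median of 0.38 above sham, with 10 genes higher (49.5% of all genes tested), 0 of them with a limma p under 0.05 before adjustment (1.25%) or after it (0.0%), edgeR and DESeq2 likewise. This median was 0.21 without the day 7 library labelled WT and 0.054 over the day 14 libraries alone. The label is a term of this fit, so without 1 sham library only the label that keeps its own sets the contrast. The median was then 0.066 for the label TRPA1-KO (without the sham library labelled WT). For the label WT it was 0.99 (without the sham library labelled TRPA1-KO).

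Over all 4 libraries of each label, the label WT was higher for 10 of the 10 genes (50.7% of all genes tested), with a median of 0.55. *H2-D1* (0.75), *H2-T23* (0.27), and *Nlrc5* (1.03) had a limma p under 0.05 before adjustment (1.93% of all genes tested in this direction), and 0 after it (0.0552%). The count before adjustment was 6 with edgeR (2.7%) and 2 with DESeq2 (1.75%). It was between 0 and 7 when a single library was left out (1.11% to 4.59%). It was 0 without the day 7 or the day 10 library labelled WT (2.01% and 1.59%) or without the day 7 library labelled TRPA1-KO (1.59%). The median without the day 7 library labelled WT was 0.24. These comparisons include the same 6 BCAS libraries as the first one, so they are not independent of it.

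Other genes of the pathway were read from lists of symbols. Between the BCAS groups, 50.3% of all genes tested were higher under the WT label. A limma p under 0.05 before adjustment in this direction was found for 2.4%. These shares apply beside the counts of this list and of each later list. Of 19 tested genes for other class I and class I-like heavy chains, 17 were higher under the WT label between the BCAS groups (median log2 fold change 0.38), and 1, *H2-Q4*, had a limma p under 0.05 before adjustment (0.90, standard error 0.29). *H2-Q4* had 4.93 and 3.74 CPM in sham, 9.60, 13.9, and 5.49 CPM under the WT label, and 3.56, 4.16, and 5.62 CPM under the TRPA1-KO label. *H2-Q6* and *H2-Q7*, chosen after their values were seen, were higher on day 10 (8.19 and 9.70 CPM) than on day 7 (1.78 and 2.85 CPM) under the WT label, in the direction of *H2-K1* and *H2-D1*. The transcript of *H2-Q4* was 91.6% identical to that of *H2-D1* over 940 bases, and those of *H2-Q6* and *H2-Q7* were 89.3% and 86.0% identical to it over 1019 and 1447 bases, so reads may be exchanged among them.

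The general machinery of peptide loading and the proteasome had medians near 0 between the labels. Of 11 genes of peptide loading and trimming, 9 were higher under the WT label by a median of 0.089, and 0 had a limma p under 0.05. The calnexin and calreticulin genes, *Canx* and *Calr*, which fold new heavy chains, lay between 309 and 342 CPM and between 249 and 313 CPM in all 8 libraries. Of 19 proteasome genes, 9 were higher (median -0.0025), and 1, the constitutive subunit *Psmb7*, had a limma p under 0.05 in the direction of lower under the WT label (-0.18, standard error 0.078). In this comparison 0 genes of any list named here had a limma adjusted p under 0.05.

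Among 26 regulators of class I genes, 20 were higher under the WT label (median 0.11). A limma p under 0.05 before adjustment was found for 4 higher and 1 lower. Among the higher were *Irf7* (1.21), *Stat2* (0.28), and the interferon receptor gene *Ifnar2* (0.37), and *Nfyb*, a subunit of the Y box factor NF-Y, was lower (-0.28). *Irf7*, which amplifies the interferon response, had 1.96 and 1.53 CPM in sham, 9.07, 7.44, and 3.18 CPM under the WT label, and 1.45, 2.35, and 2.50 CPM under the TRPA1-KO label. The 2 libraries that are high for the class I genes are also the highest for *Irf7*.

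Of 22 interferon-stimulated genes that are not class I genes, 22 were higher under the WT label (median 0.77, 50.3% of all genes tested). Of these, 9 had a limma p under 0.05 before adjustment (2.4% of all genes tested in this direction). They were *Ifit1* (1.36), *Oasl2* (1.76), *Rsad2* (1.21), *Usp18* (1.04), *Ifitm3* (1.0), *Gbp3* (1.02), *Gbp7* (0.76), *Igtp* (1.02), and *Zbp1* (0.85), and 0 had a limma adjusted p under 0.05. *Oasl2*, an antiviral gene (limma adjusted p = 0.69), had 1.96 and 2.88 CPM in sham, 20.8, 10.5, and 5.27 CPM under the WT label, and 1.89, 2.56, and 2.91 CPM under the TRPA1-KO label. The median of this list relative to sham was 1.56 on day 7 and 0.72 on day 10 under the WT label, beside 1.42 and 1.11 for the 10 class I genes. The 6 interferon genes on the list, *Ifng*, *Ifnb1*, *Ifna4*, *Ifna2*, *Ifnl2*, and *Ifnl3*, had 0 reads in all 8 libraries. This is below the level of 3 reads, 0.235 to 0.378 CPM, under which a gene cannot be shown here.

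Of 9 class II genes, which present peptides from outside the cell, 9 were higher under the WT label (median 0.59), and 1, *H2-Ab1*, had a limma p under 0.05 before adjustment (0.97, standard error 0.39). *H2-Ab1* had 0.391 and 0.767 CPM in sham, 3.02, 2.52, and 0.329 CPM under the WT label, and 0, 0.534, and 0.624 CPM under the TRPA1-KO label. Receptors of class I molecules, listed together with related receptors, were low. Of the 12 listed, 8 were tested, 8 were higher under the WT label (median 0.26), and 0 had a limma p under 0.05. Among the related receptors, the inhibitory gene *Lilrb4a* stood out in 1 library, with 27.2 CPM on day 7 under the WT label. It had 1.76 CPM on day 10 under this label and at most 0.936 CPM elsewhere. *Cd160* lay between 1.07 and 2.27 CPM.

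**Figure D5:**
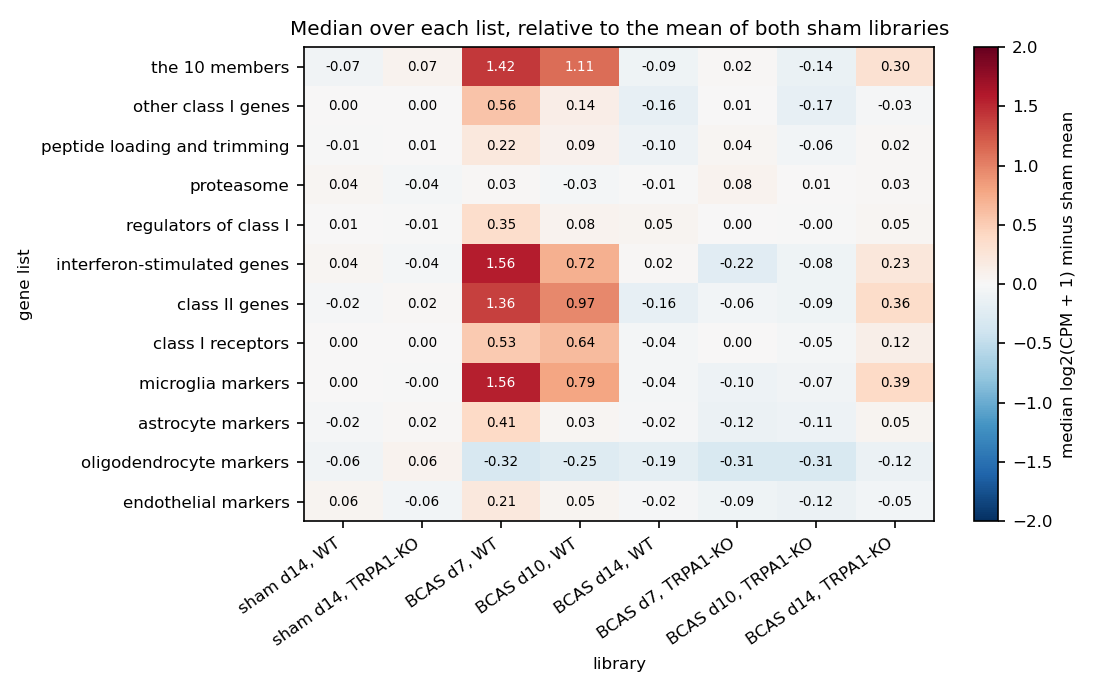
Median over each gene list (rows) of the log2(CPM + 1) difference from the sham mean, in each of the 8 libraries (columns), in color and in digits. The 10 class I genes, interferon-stimulated genes, class II genes, and microglia markers have high medians in the day 7 and day 10 libraries labelled WT, class I receptors have 0.53 and 0.64 there, and the proteasome list stays between -0.040 and 0.075.

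Markers of microglia were high in the same 2 libraries as the class I genes. All 10 of 10 microglia markers were higher under the WT label (median log2 fold change 0.70), and *Tmem119* (0.55), *Csf1r* (0.60), and *Itgam* (1.04) had a limma p under 0.05 before adjustment. Their summed level was 404 and 414 CPM in sham, 1243, 688, and 397 CPM on days 7, 10, and 14 under the WT label, and 377, 393, and 537 CPM under the TRPA1-KO label, with 0 of the 10 at 0 in any library. On day 7 the sum was 3.04 times the sham mean, and 4 of the 10 class I genes had a higher fold (*Tap1*, *Psmb8*, *Psmb9*, and *Nlrc5*). On day 10 the sum was 1.68 times the sham mean and 7 of the 10 class I genes had a higher fold. The part of these cells in the class I values was not tested.

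Markers of T, NK, and B cells were low beside these levels, while those of blood myeloid cells and red cells varied widely between libraries. The 11 T and NK cell markers summed to 9.13 to 23.8 CPM, most of it from *Cd4* (8.68 to 23.02 CPM), *Lck* had at most 2.27 CPM, and the defining genes *Cd3e*, *Cd3d*, *Cd3g*, *Cd8a*, *Nkg7*, and *Gzmb* had at most 0.756 CPM in any library, with 0 of the 4 tested markers at a limma p under 0.05 between the BCAS groups (3 of 4 higher under the WT label, median 0.30). Of the 11 markers, 7 and 7 were at 0 in sham, 3, 2, and 8 on days 7, 10, and 14 under the WT label, and 9, 8, and 6 under the TRPA1-KO label. Of the 7 markers of blood myeloid cells, the summed level was 65.9 CPM on day 7 under the WT label against 2.74 to 14.4 CPM elsewhere, most of it from *Lyz2* (59.3 CPM), while *Ly6c2* had 3.38 CPM and *Ccr2* 1.78 CPM, and 4 of 4 tested were higher under the WT label (median 0.69). The 4 B cell markers, with *Cd79b* the highest, summed to at most 1.51 CPM, with 1 tested (0.21). Red cell markers, of which *Hba-a1* and *Hba-a2* are the highest, summed to 1.11 to 202 CPM, with 63.2 and 202 CPM in sham, 4.45, 132, and 3.29 CPM under the WT label, and 1.11, 12.1, and 80.01 CPM under the TRPA1-KO label, and 3 of 5 were higher under the WT label (median 0.23). The 2 libraries in which the class I genes were high thus stand far apart in red cell markers. The part of these cells was not tested.

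Of the brain cell markers, 8 of 9 for astrocytes were higher under the WT label (median 0.15), with *Aldh1l1* (0.46) at a limma p under 0.05 before adjustment. *Gfap*, which marks reactive astrocytes, had 200.4 and 234 CPM in sham, 1415, 1060, and 157 CPM under the WT label, and 167, 169, and 427 CPM under the TRPA1-KO label, so it was highest in the same 2 libraries, with day 14 of the label TRPA1-KO next. For endothelial cells 7 of 9 were higher (0.27), with *Pecam1* (0.33) and *Ly6c1* (0.27) at this limit. For oligodendrocytes 3 of 9 were higher (-0.042), with *Mog* (0.51) higher and *Opalin* (-0.29) lower at this limit, and for their precursors 4 of 5 (0.11), with *Gpr17* (0.48). Lists with no gene at this limit were those of pericytes (3 of 5 higher, median 0.045, led by *Rgs5* and *Pdgfrb*), neurons (2 of 9, -0.083, led by *Snap25* and *Syt1*), ependymal cells and choroid plexus (4 of 6, 0.13, led by *Foxj1* and *Ccdc153*), and fibroblasts (4 of 5, 0.25, led by *Pdgfra* and *Col1a2*). *Pdgfra* is also on the list of oligodendrocyte precursor markers. Relative to sham, the fibroblast list had a median of 0.87 on day 7 and 0.65 on day 10 under the WT label, the blood myeloid list 1.07 and 0.73, and the T and NK cell list 0.43 and 0.57, so these lists were also high in the same 2 libraries, and their part in the class I values was not tested.

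The genes outside the pathway with the pattern most like that of the 10 were found by the Pearson correlation of their log2(CPM + 1) values with the mean standardized class I value over the 8 libraries, among 15152 genes whose mean reached 1 CPM. They were *Aif1* (0.993), *Sparc* (0.991), *Arhgap45* (0.989), *Ptprc* (0.989), and *Lgals3bp* (0.989). *Aif1* had 3.83 and 3.45 CPM in sham, 12.98, 8.32, and 3.62 CPM under the WT label, and 3.67, 3.52, and 4.99 CPM under the TRPA1-KO label. These correlations describe the 8 libraries and rest on the 2 high ones, which all of these genes share. Among the 10 themselves, the correlation with the mean of the 10, which includes the gene itself, ranged from 0.70 for *H2-T23* to 0.98 for *B2m*. Among the 15152 genes these correlations ranked 1502 and 16, so genes outside the pathway ranked above both.

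The spans of several of the 10 genes, introns included, overlap that of another annotated gene. The overlap of their exons was not measured, and the use of strand in counting is not given in the sources used here. How far reads of such pairs can be told apart is therefore not known. *B2m* lies within the span of *Patl2* on the opposite strand, which had at most 0.214 CPM, and *H2-T23* within the antisense *A930015D03Rik*, which had 3.74 to 5.45 CPM. *Tap1* and *Psmb9* share 212 bases, and *Psmb8* and *Tap2* both overlap the antisense *Gm20496*. *Psmb9*, *Tap1*, *Psmb8*, and *Tap2* lie side by side in 34.3 kilobases of chromosome 17 (34181987 to 34216321), and their day 7 folds over the sham mean under the WT label, 3.22, 4.12, 5.88, and 2.14, differed within this block.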

How the data were processed

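Polyadenylated RNA of the corpus callosum was sequenced, 1 library per genotype label, operation, and day. The submitters' processing notes name HISAT2, Subread with featureCounts, and edgeR, on the mouse genome mm10, and the annotation and strand setting are not given in the sources used here. The deposited table holds a normalized signal per gene symbol, and its values are CPM, the reads of a gene scaled by the authors to an effective library size, so that library sums lay between 966202 and 1022161. In it 100% of values came out as whole reads at a tolerance of 0.01. Depths and counting intervals (Clopper-Pearson, 95%, counting error only) were taken from these recovered reads.

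Groups followed the labels, and both sham libraries formed 1 group. The main test was limma 3.58.1 (R 4.3.3, empirical Bayes with trend, two-sided) on log2(CPM + 1) over the 18123 genes whose mean reached 0.1 CPM, with Benjamini-Hochberg adjustment over all of them, and an exact permutation test of single genes beside it. The planned test was kept, and edgeR 4.0.16 (quasi-likelihood) and DESeq2 1.42.0 on the recovered reads were run as alternatives, beside other pseudocounts and filters, limma's robust option, equal library medians, the day as a block, and leaving out each library in turn. The code was tested on simulated data. Transcripts were compared with blastn 2.17.0, positions and transcript lengths are of GENCODE M21 (longest principal transcript), and promoters are from RefSeq.

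The 10 genes and all lists were chosen with earlier results of these data known. Beside the 10 genes, *Trpa1*, and *Gfap*, each list gave its genes with a limma p under 0.05 between the BCAS groups or, where none had one, the 2 with the highest mean (some are not reported here), and the 5 genes most like the 10 in pattern were named. Genes given as defining or overlapping, or to show a cell type, were added after their values were seen.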

Additional observations from a re-analysis of the deposited data

Results flagged for a closer look

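For *Nlrc5*, all 3 BCAS libraries labelled WT lay above their own sham library and all 3 labelled TRPA1-KO lay below theirs. The share of all genes tested with this pattern was not counted. On day 14 the counting intervals overlapped those of sham under the WT label (0.840 to 2.58 against 0.835 to 2.23 CPM). They also overlapped under the TRPA1-KO label (0.720 to 2.31 against 1.10 to 2.85 CPM). The difference between the labels in the change from sham was 1.68 on the log2(CPM + 1) scale (limma interaction, adjusted p = 0.9998), so it did not pass the test. It rests on 4 to 78 reads per library and on 1 sham library per label, and the *Trpa1* reads put these labels in doubt.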

How the results depend on the processing

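With single libraries left out, the median log2 fold change of the 10 genes ranged from 0.41 to 1.44 between the BCAS groups (main value 0.85), with 0 to 4 genes at an adjusted p under 0.05. Against sham it ranged from 0.44 to 1.41 with the label WT, with 0 to 3 such genes, and from -0.093 to 0.12 with the label TRPA1-KO. Over both labels it ranged from 0.21 to 0.51 when a BCAS library was left out. Leaving out a sham library there left only 1 label to set the contrast, with 0.066 (TRPA1-KO) and 0.99 (WT). The median ranged from 0.24 to 0.87 over all libraries of each label. For the difference between labels it ranged from 0.52 to 1.501, where leaving out a sham library left no such contrast. The highest values of these ranges came without the day 14 library labelled WT, except with the label TRPA1-KO against sham (without its day 10 library). For *Nlrc5* between the BCAS groups, 16 settings gave 1.12 to 2.38 (limma, edgeR, or DESeq2 adjusted p 0.035 to 1.0).

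Signs changed for some genes in 3 comparisons. Leaving out single libraries in the label TRPA1-KO against sham gave ranges of -0.040 to 0.20 for *H2-D1*, -0.22 to 0.11 for *H2-K1*, -0.060 to 0.18 for *H2-T23*, -0.11 to 0.21 for *B2m*, -0.44 to 0.36 for *Tap1*, -0.13 to 0.29 for *Psmb8*, and -0.26 to 0.20 for *Psmb9*. Over both labels, the ends of the ranges came from fits without 1 sham library, in which only 1 label sets the contrast. The lower end is that of the label TRPA1-KO and the upper end that of the label WT. These were -0.14 to 1.07 for *H2-K1*, -0.028 to 1.04 for *B2m*, -0.44 to 1.33 for *Tap1*, and -0.61 to 1.07 for *Nlrc5*. For the difference between labels the ranges were -0.058 to 0.17 for *H2-T23* and -0.23 to 0.42 for *Psmb9*. The cause of the other sign changes was not tested.

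The correlations of same-day deviations from the label means were -0.10, 0.0051, and -0.26. Each deviation also holds the difference between mice, with 1 library per label and day. These values therefore cannot show whether the libraries of a day share an effect. With the day as a replicate block, the median was 0.85 between the BCAS groups, 0.49 and -0.31 against sham with the labels WT and TRPA1-KO, 0.054 over both labels, 0.55 over all libraries of each label, and 0.89 for the difference between labels. The number of the 10 genes with an unadjusted limma p under 0.05 went from 5 to 4 between the BCAS groups. The share of all genes tested in this direction went from 2.4% to 2.1%. Against sham with the label WT the number went from 5 to 0 (share from 2.44% to 0.971%). Over all libraries of each label it went from 3 to 4 (share from 1.93% to 1.9%). With this block, only day 14 compares BCAS with sham. The sign then changed with the label TRPA1-KO against sham for *H2-D1* (-0.29), *H2-T23* (-0.13), *B2m* (-0.34), *Tap2* (-0.12), and *Psmb8* (-0.37), and over both labels, with the block and with the day 14 libraries alone, for *Psmb9* (-0.048) and *Nlrc5* (-0.094). Across all genes tested, a p under 0.05 between the BCAS groups was found for 761 genes with limma, 948 with edgeR, and 595 with DESeq2, and an adjusted one for 3, 2, and 17. Depth limits *Psmb9* and *Nlrc5* most, and no day has a replicate.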
